A study of Danio rerio with 3 samples.

Results

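Splicing factor genes of the zebrafish embryo were taken from the deposited table of gene counts as the rows whose gene name starts with srsf, hnrnp, sf3a, sf3b, snrp, prpf, u2af or lsm. Of the 32520 genes in the table, 91 had such a name and 89 had a mean of at least 10 counts over the libraries. They were 16 SR protein genes (srsf), 24 hnRNP protein genes (hnrnp), 46 genes for proteins of the snRNPs and related factors (sf3a, sf3b, snrp, prpf and lsm) and 3 U2AF genes. The study sequenced mRNA of whole embryos of the Tubingen strain at 36 h post-fertilization (hpf) to ask how loss of Setd2, the enzyme that trimethylates lysine 36 of histone H3, changes the embryo. The libraries were labelled HO (setd2-/-), HE (setd2+/-) and WT (wild type), with 1 library per genotype. All were littermates of the same age, with no treatment named in the labels. By the study's methods, embryos were kept in egg water with methylene blue, and N-phenylthiourea was used against pigmentation. The number of embryos in a library is not given in the sources used here. Which mutant line was used is not in the labels, and by the study's methods its default line carries a frame-shift mutation in exon 3. With a single library per genotype, the differences given here were not checked in replicates and could not be tested, and every interval covers counting error only.

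The spliceosome removes introns from pre-mRNA and is built from small nuclear ribonucleoproteins (snRNPs), each an snRNA with a ring of Sm or LSm proteins and proteins of its own. U1 recognises the 5′ splice site, U2 pairs with the branch site, and U4, U5 and U6 join as the tri-snRNP. SR proteins bind exonic sequences and recruit U1 and U2AF, whereas hnRNP proteins coat the nascent transcript and often oppose exon inclusion. These roles were worked out mostly in human cells and yeast. In mammals, trimethylated lysine 36 of histone H3 is bound by reader proteins that contact splicing regulators, which links the mark to exon choice. Teleost fish carry many of these genes as duplicated copies with the suffixes a and b.

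The targeted gene was examined before the splicing factors. setd2 (ENSDARG00000062244) had 2087 counts in the library labelled HO, 1380 in the library labelled HE and 1348 in the library labelled WT. In CPM, the count scaled to a fixed library total, this was 147 (95% exact interval 141 to 154) in HO, 108 (103 to 114) in HE and 101 (95.7 to 107) in WT. The mRNA was thus highest in the library labelled HO. Its log2 ratio was 0.55 (0.45 to 0.65) for HO against WT, 0.12 (0.0098 to 0.23) for HE against WT and 0.43 (0.33 to 0.53) for HO against HE. setd2 is a long gene, of 11279 exonic bases. Once the median of genes of like length was subtracted, the ratios were 0.49 for HO against WT, 0.25 for HE against WT and 0.25 for HO against HE. The high value in HO goes against the label if the mutation lowers the mRNA, as decay of a transcript with a frame-shift can. By quantitative PCR at a later age, the study found setd2 mRNA strongly decreased in homozygotes of its default line. It found no change in a line mutated near the end of the coding sequence. The higher value in the library labelled HO matches neither result. The counts do not show the mutation itself, so whether each library has the genotype of its label, and from which line it came, was not tested. The libraries are called by their labels throughout, and each direction given here rests on those labels.

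Total counts were 14160325 in HO, 12760683 in HE and 13340950 in WT. Log2 ratios are of CPM scaled by TMM (a factor that equalises the bulk of genes between libraries), and the median of all 18966 tested genes, which were held to the same minimum as the members, lay at −0.0028 for HO against WT, 0.00084 for HE against WT and −0.0020 for HO against HE. Markers of 6 cell types that a whole embryo holds were detected in every library. Erythrocyte markers (9 genes) summed to 4741 CPM in HO, 5170 in HE and 3508 in WT. Lens markers (3 genes tested) summed to 55.1 CPM in HO, 86.5 in HE and 27.7 in WT. Skeletal muscle markers (15 tested) summed to 25350 CPM in HO, 25400 in HE and 27410 in WT, and epidermal markers (6 genes) to 14720 in HO, 15370 in HE and 13770 in WT. Neuronal markers (8 genes) summed to 1582 CPM in HO, 1463 in HE and 1511 in WT, and markers of cycling cells (11 genes) to 3113 in HO, 3150 in HE and 3112 in WT. Markers at 0 counts numbered 1 in HO and 1 in HE for muscle and 1 in HE for lens. Summed erythrocyte and lens markers were therefore higher in the libraries labelled HO and HE than in that labelled WT, and their part in the differences described here was not tested. The erythrocyte genes were uneven. By log2 ratio, 8 of the 9 were higher for HO against WT, 4 of them past 2-fold, and 8 were higher for HE against WT. The most abundant, hbae3, had 2109 CPM in HO, 2403 in HE and 2111 in WT. hbbe1.2 was lower for HO against WT and alas2 for HE against WT, with intervals that included no difference. In RNA of whole embryos, fewer cells of a type and less RNA per cell cannot be told apart.

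Splicing factor mRNAs took up a similar share of each library. The 89 genes held 1.626% of all counts in the HO-labelled library (230245 counts), 1.682% in the HE-labelled library (214669 counts) and 1.653% in the WT-labelled library (220472 counts). The hnRNP genes alone held 0.826% in HO, 0.866% in HE and 0.856% in WT, so about equal parts of the members' counts came from hnRNP genes and from all other classes together, with the hnRNP part at 50.8% in HO, 51.5% in HE and 51.8% in WT. The snRNP genes held 0.451% in HO, 0.460% in HE and 0.451% in WT, and the SR genes 0.293% in HO, 0.3001% in HE and 0.295% in WT. U2AF genes held 0.0556% in HO, 0.0556% in HE and 0.0508% in WT. Per unit of length the members were abundant messages. Their median FPKM (fragments per kilobase of exon, scaled to library total, as deposited) was 51.7 in HO, 53.5 in HE and 51.2 in WT, against a median over all tested genes of 5.19 in HO, 5.09 in HE and 5.21 in WT.

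The classes differed little between the libraries. For HO against WT the median log2 ratio was −0.0055 over the SR genes, −0.036 over the hnRNP genes, 0.020 over the snRNP genes and 0.054 over the 3 U2AF genes. For HE against WT it was 0.11 over the SR genes, 0.025 over the hnRNP genes, 0.072 over the snRNP genes and 0.17 over the U2AF genes. For HO against HE, which does not use the WT-labelled library, it was −0.037 over the SR genes, −0.078 over the hnRNP genes, −0.075 over the snRNP genes and −0.069 over the U2AF genes. The HE-labelled library thus had the higher median in each class against both other libraries, by less than the size limit used here for a call, a log2 ratio of 0.32 in either direction (25% higher or 20% lower). The comparisons against WT share the WT-labelled library and those with HE share the HE-labelled one, so they do not repeat each other.

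**Figure D1:**
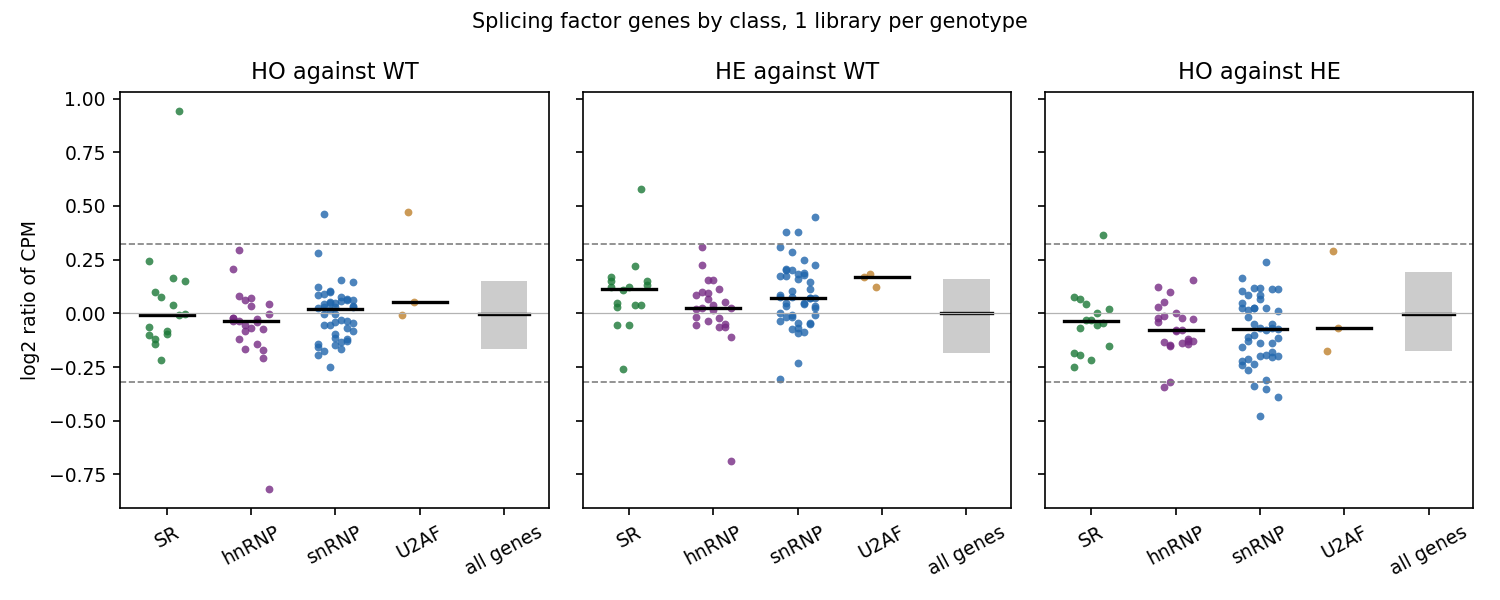
Log2 ratio of TMM-scaled CPM (vertical axis) of each splicing factor gene by class (horizontal axis) for HO against WT, HE against WT and HO against HE, with 1 library per genotype. Points are genes, black bars are class medians, dashed lines mark the size limit of 0.32, and the grey box spans the quartiles of all 18966 tested genes with their median; most points lie between the dashed lines, with srsf2b highest and hnrnpa3 lowest for HO against WT.

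Counted by the rule of size, 3 of 89 members were higher and 1 was lower past the limit in the library labelled HO than in that labelled WT. Over all tested genes, 10.6% were past this size in the higher direction and 12.9% in the lower. For HE against WT, 4 members were past it higher and 1 lower, beside 11.1% and 15.2% of all tested genes. For HO against HE, 1 member was past it higher and 5 lower, beside 15.2% and 13.0%. The share of members past the size lay below that of all tested genes in each pair and direction. Genes of low count were past it more often. Where the mean was 100 counts or more, 2 of 86 members were past the limit higher and 1 lower for HO against WT, beside 5.00% and 5.52% of all such genes. In the same set, 3 were higher and 1 lower for HE against WT, beside 5.68% and 7.28%, and 1 was higher and 5 lower for HO against HE, beside 8.26% and 6.97%. No member was past 2-fold in any pair of libraries, where 2.39% of all tested genes were for HO against WT, 2.70% for HE against WT and 2.67% for HO against HE.

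Smaller differences were counted where the counting interval of a gene's ratio left out a ratio of 1. Depth sets how often this occurs, so the count was limited to genes averaging 1000 counts or more, a limit chosen after the values were seen (54 members and 2502 genes in all). For HO against WT, 8 members were higher and 15 lower beyond counting error, which is 14.8% and 27.8% of them, beside 28.3% and 21.0% of all such genes. For HE against WT, 21 were higher and 3 lower (38.9% and 5.56%), beside 29.3% and 18.9% of all. For HO against HE, 7 were higher and 22 lower (13.0% and 40.7%), beside 26.9% and 30.0% of all. At a mean of at least 2000 counts (36 members), the 36.1% of members higher for HE against WT stood beside 35.8% of all genes, and the 36.1% lower for HO against HE stood beside 40.2%. At this limit 8.33% of members and 20.1% of all genes were lower for HE against WT, and 11.1% of members and 25.6% of all were higher for HO against HE. For HO against WT, 11.1% of members were higher and 27.8% lower, beside 29.3% and 29.4% of all. How far the shares of members lay from those of all genes thus moved with the depth limit, and the differences between them were not tested.

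Among the SR genes, levels were led by srsf1a, srsf2a and srsf11. srsf1a, a copy of the gene for the founding SR protein, had an FPKM of 165 in HO, 166 in HE and 157 in WT. srsf2a, whose human counterpart marks nuclear speckles, had 112 in HO, 111 in HE and 110 in WT. srsf11 had 91.6 in HO, 94.95 in HE and 99.9 in WT. The level of each of these messages stayed within the limit in all pairs of libraries. The lowest SR gene was srsf7b, with an FPKM of 2.31 in HO, 2.16 in HE and 1.94 in WT, and with 38 counts in HO, 32 in HE and 30 in WT no difference was detectable at this depth.

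srsf2b (ENSDARG00000103893), the less abundant copy of srsf2, had the largest ratio of all members. It had 1042 counts in the library labelled HO, 722 in that labelled HE and 512 in that labelled WT, or 73.6 CPM (69.2 to 78.2) in HO, 56.6 CPM (52.5 to 60.9) in HE and 38.4 CPM (35.1 to 41.9) in WT. The counting intervals of the 3 libraries did not overlap, and HE lay between HO and WT. The log2 ratio was 0.94 (0.79 to 1.10) for HO against WT, 0.58 (0.42 to 0.75) for HE against WT and 0.36 (0.23 to 0.50) for HO against HE. srsf2b was the only SR gene past the limit in any pair. The more abundant copy srsf2a had 4688 counts in HO, 4173 in HE and 4312 in WT, with a log2 ratio of 0.04 (−0.02 to 0.10) for HO against WT. Summed over both copies, srsf2 had 5730 counts in HO, 4895 in HE and 4824 in WT.

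The other SR genes spread over both directions. srsf5a, whose human counterpart is a widely expressed SR protein, had 3856 counts in HO, 3336 in HE and 4240 in WT, and its log2 ratio was −0.22 (−0.28 to −0.15) for HO against WT and −0.26 (−0.33 to −0.19) for HE against WT. It was the SR gene lowest in both HO and HE relative to WT. srsf6a, with 2148 counts in HO, 1992 in HE and 1811 in WT, had a log2 ratio of 0.17 (0.08 to 0.26) for HO against WT. srsf3b, with 2633 counts in HO, 2793 in HE and 2668 in WT, had the lowest ratio of the SR genes for HO against HE, −0.25 (−0.33 to −0.17). Over the class, 7 SR genes were higher and 9 lower for HO against WT, 13 higher and 3 lower for HE against WT, and 6 higher and 10 lower for HO against HE. Of all 18966 tested genes, 9379 were higher for HO against WT, 9508 for HE against WT and 9434 for HO against HE. srsf6a and srsf3b were chosen after their values were seen.

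The hnRNP genes held the most abundant messages of all members. hnrnpa0l (ENSDARG00000036161), which encodes an hnRNP A0-like RNA-binding protein, had an FPKM of 711 in HO, 782 in HE and 743 in WT. hnrnpaba, a copy of the gene for the RNA-binding protein hnRNP A/B, had 365 in HO, 367 in HE and 377 in WT, and hnrnpa1a, a copy of the gene for the splicing repressor hnRNP A1, had 343 in HO, 345 in HE and 355 in WT. All 3 stayed within the limit across the libraries. The class leaned lower in HO by a small amount. Of 24 hnRNP genes, 17 were lower and 7 higher for HO against WT, 9 lower and 15 higher for HE against WT, and 19 lower and 5 higher for HO against HE. Of all 18966 tested genes, 9587 were lower for HO against WT, 9458 for HE against WT and 9532 for HO against HE. Summed over the class, where the most abundant genes weigh most, the log2 ratio was −0.04 (−0.06 to −0.03) for HO against WT. It was 0.04 (0.03 to 0.05) for HE against WT and −0.08 (−0.10 to −0.07) for HO against HE. All of these are well inside the size limit.

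hnrnpa3 was the member with the lowest ratio. This gene, whose human counterpart is a close relative of the hnRNP A2/B1 gene, had 89 counts in the library labelled HO, 87 in that labelled HE and 150 in that labelled WT. In CPM, HO had 6.29 (5.05 to 7.73), HE 6.82 (5.46 to 8.41) and WT 11.2 (9.52 to 13.2). HO and HE overlapped and both lay below WT. The log2 ratio was −0.82 (−1.23 to −0.45) for HO against WT, −0.69 (−1.10 to −0.31) for HE against WT and −0.13 (−0.58 to 0.31) for HO against HE. hnrnpa0b, a minor copy of hnrnpa0, had 294 counts in HO, 264 in HE and 226 in WT, and its log2 ratio of 0.30 (0.04 to 0.56) for HO against WT and 0.31 (0.05 to 0.57) for HE against WT lay just inside the limit.

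For HO against HE, 2 abundant hnRNP messages stood lowest. hnrnpabb, the other copy of hnrnpab, had 8006 counts in HO, 9042 in HE and 8218 in WT. Its log2 ratio was −0.34 (−0.38 to −0.30) for HO against HE, 0.22 (0.18 to 0.27) for HE against WT and −0.12 (−0.16 to −0.07) for HO against WT. HE was the highest library for this gene and HO the lowest. hnrnpc, whose human counterpart binds uridine tracts in nascent RNA, had 1681 counts in HO, 1874 in HE and 1784 in WT, and its log2 ratio of −0.32 (−0.42 to −0.23) for HO against HE lay at the edge of the size limit without reaching it. The hnRNP genes with a ratio above 0 in this pair included hnrnpua, a copy of the gene for the scaffold attachment protein hnRNP U, with 2822 counts in HO, 2257 in HE and 2588 in WT and a log2 ratio of 0.16 (0.08 to 0.24), a gene chosen after its values were seen.

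U2AF selects the 3′ splice site, with the large subunit U2AF2 on the polypyrimidine tract and the small subunit U2AF1 on the AG dinucleotide. u2af2a had 2177 counts in the library labelled HO, 1589 in that labelled HE and 1484 in that labelled WT. Its log2 ratio was 0.47 (0.38 to 0.57) for HO against WT, 0.18 (0.08 to 0.29) for HE against WT and 0.29 (0.19 to 0.38) for HO against HE. HO was the highest library, with HE closer to WT than to HO. The other copy, u2af2b, had 3189 counts in HO, 2982 in HE and 2906 in WT, with a log2 ratio of 0.05 (−0.02 to 0.13) for HO against WT, and u2af1 had 2505 in HO, 2522 in HE and 2381 in WT, with a ratio of −0.01 (−0.09 to 0.07). In the GRCz12tu annotation, u2af2a lies on the same chromosome as setd2, as do 2 other members, prpf3 and prpf31. prpf3, which encodes a U4/U6 protein of the tri-snRNP, had 755 counts in HO, 626 in HE and 588 in WT and a log2 ratio of 0.28 (0.12 to 0.44) for HO against WT, and prpf31 had 808 in HO, 779 in HE and 719 in WT with a ratio of 0.09 (−0.06 to 0.24). All 3 members on this chromosome had their lowest CPM in the library labelled WT, as did u2af2b, which lies on another chromosome. The CPM of u2af1, also on another chromosome, was 177 in HO, 198 in HE and 178 in WT. The part of linkage to setd2 in these values was not tested.

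**Figure D2:**
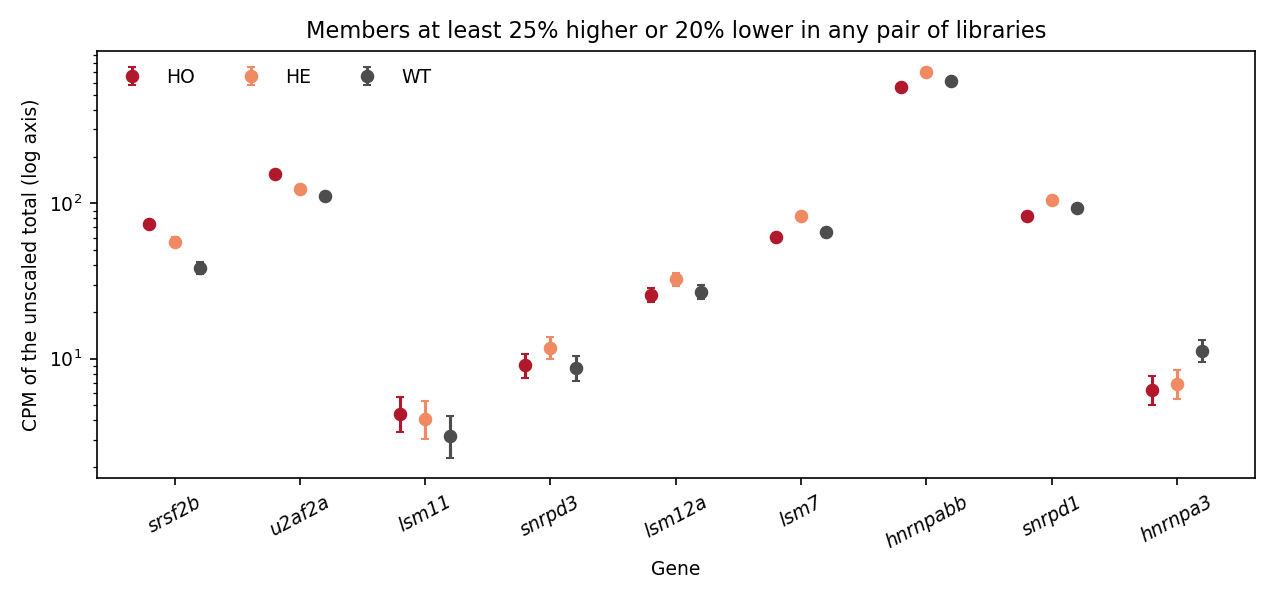
CPM of the unscaled library total on a log axis (vertical) for the 9 members past the size limit in any pair of libraries (horizontal), in the libraries labelled HO, HE and WT. Points are single libraries and bars are 95% exact counting intervals; srsf2b has 73.6 CPM in HO, 56.6 in HE and 38.4 in WT, hnrnpa3 is lowest in HO and HE, and lsm7, snrpd1 and hnrnpabb are highest in HE.

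Sm proteins form the ring around U1, U2, U4 and U5 snRNA. The 8 Sm genes differed widely in level. snrpb, which encodes SmB, was the highest with an FPKM of 218 in HO, 259 in HE and 227 in WT. snrpd2 (SmD2) had 133 in HO, 145 in HE and 140 in WT, and snrpe (SmE) had 125 in HO, 143 in HE and 142 in WT. At the low end, snrpd3 (SmD3) had 13.7 in HO, 17.9 in HE and 13.2 in WT, so that the ring's highest and lowest genes were 15.9-fold apart in HO, 14.5-fold in HE and 17.2-fold in WT. The related snrpd3l, which the table of gene names also lists under the human symbol SNRPD3, had 101 in HO, 119 in HE and 114 in WT, in the range of the other Sm genes.

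Most Sm genes were lower in the library labelled HO than in that labelled HE. snrpd1 (SmD1) had 1181 counts in HO, 1346 in HE and 1253 in WT and a log2 ratio of −0.35 (−0.47 to −0.24) for HO against HE. snrpd3 had 128 counts in HO, 150 in HE and 116 in WT, with −0.39 (−0.75 to −0.04) for HO against HE and 0.45 (0.10 to 0.82) for HE against WT. snrpb had 2975 counts in HO, 3181 in HE and 2921 in WT, with −0.26 (−0.33 to −0.19) for HO against HE. Of the 8 Sm genes, 6 were lower for HO against HE, each beyond counting error, and the median over the ring was −0.23. Among all 1590 tested genes under 1000 bases, the length class of 7 of the 8 Sm genes, 339 were lower beyond counting error in this pair, at a depth that was not matched. The exceptions were snrpf, with 273 counts in HO and 224 in HE, and snrpg, with 896 in HO and 754 in HE, whose ratios of 0.12 (−0.14 to 0.38) and 0.08 (−0.06 to 0.23) included no difference. The median of the ring was −0.11 for HO against WT and 0.08 for HE against WT, or −0.026 and 0.071 once the median of genes of like length was subtracted.

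The LSm ring of U6 snRNA, which in yeast and human binds the 3′ end of U6, behaved alike in this pair. Its 6 tested genes, lsm3 to lsm8, were all lower for HO against HE, with ratios from −0.48 to −0.12 and a median of −0.17. Of these, 3 were lower beyond counting error. Of all 12017 genes averaging 100 counts or more, 6177 were lower in this pair and 2180 were so beyond counting error, at a depth that was not matched. Under 1000 bases, the length class of lsm4, lsm6, lsm7 and lsm8, 995 of the 1590 tested genes were lower. Of these genes, 339 were lower beyond counting error, again at unmatched depth. lsm7 had the largest difference of the ring, with 857 counts in HO, 1065 in HE and 868 in WT. Its log2 ratio was −0.48 (−0.61 to −0.35) for HO against HE and 0.38 (0.25 to 0.51) for HE against WT. HE was the library that stood apart for lsm7, since HO and WT differed by −0.10 (−0.24 to 0.04). lsm6, with 298 counts in HO, 313 in HE and 336 in WT, had −0.25 (−0.48 to −0.02) for HO against WT, and lsm4, with 681 in HO, 677 in HE and 737 in WT, had −0.19 (−0.35 to −0.04). For the LSm ring the median was −0.07 for HO against WT and 0.12 for HE against WT, or −0.025 and 0.080 with the same subtraction. FPKM of lsm7, the highest gene of the ring, and lsm3, the lowest, were 7.17-fold apart in HO, 9.21-fold in HE and 7.43-fold in WT. The ring's LSm2 gene could not be followed, as smx5, an lsm2 gene by its synonym, was listed at 0 counts in all 3 libraries. Another gene, named LSM2 (1 of many), had 8 counts in HO, 5 in HE and 9 in WT, below the minimum mean.

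**Figure D3:**
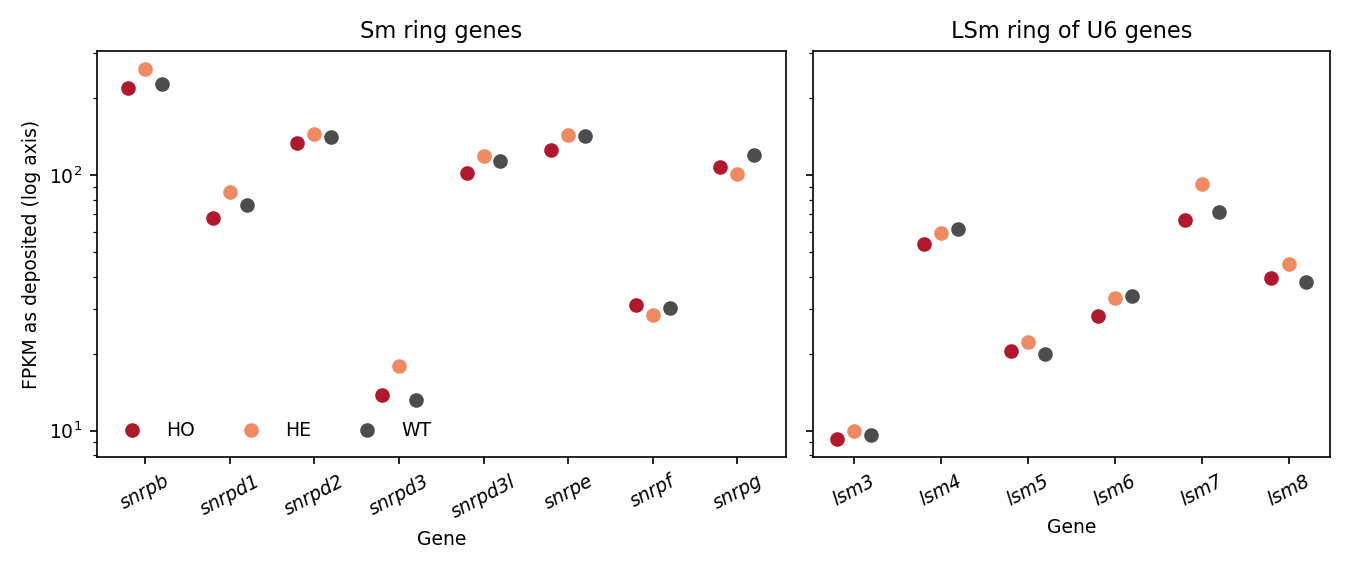
Deposited FPKM on a log axis (vertical) of the genes of the Sm ring, left, and of the LSm ring of U6, right (horizontal), in the libraries labelled HO, HE and WT, 1 point per library. Within a ring the genes spread over about an order of magnitude and keep nearly the same rank in each library, snrpb and lsm7 being highest and snrpd3 and lsm3 lowest.

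Proteins that are particular to U1, U2 or the tri-snRNP give each particle its function. None of the 11 U2 genes, which include those for the SF3A and SF3B complexes that hold the branch site, was past the limit in any pair. Of all genes averaging 100 counts or more, 5.00% were past it higher and 5.52% lower for HO against WT. The shares were 5.68% and 7.28% for HE against WT and 8.26% and 6.97% for HO against HE, so a list of this size can hold none. No U2 gene differed beyond counting error for HO against WT. Of all 12017 genes averaging 100 counts or more, 1855 were higher and 1588 lower beyond counting error in that pair. sf3b1, for the largest SF3B protein and the contact to the branch site, had 5706 counts in HO, 5008 in HE and 5311 in WT, with ratios of 0.02 (−0.03 to 0.08) for HO against WT and 0.00 (−0.06 to 0.06) for HE against WT. Lower beyond counting error for HO against HE were 3 U2 genes, beside 2180 of the 12017 genes, at a depth that was not matched. The shortest of the 3 U2 genes, sf3b5, had 620 counts in HO, 686 in HE and 643 in WT and a ratio of −0.31 (−0.47 to −0.15). The others were sf3a2 at −0.20 (−0.34 to −0.06) and sf3b4 at −0.14 (−0.25 to −0.02). For HE against WT, sf3b5 and sf3b4 were higher beyond counting error, beside 1964 of the 12017 genes. The U2 median was 0.017 for HO against WT, 0.044 for HE against WT and 0.013 for HO against HE, the last at −0.063 once the median of genes of like length was subtracted.

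Among U1 genes, snrpa, for the U1 protein A, had 1927 counts in HO, 1969 in HE and 1788 in WT, with log2 ratios of 0.03 (−0.07 to 0.12) for HO against WT and 0.22 (0.13 to 0.32) for HE against WT. snrpc, for the U1 protein C, had 1183 counts in HO, 1210 in HE and 1150 in WT, with −0.04 (−0.16 to 0.08) for HO against WT and 0.16 (0.04 to 0.28) for HE against WT. Both stayed within the limit and had their highest count in the library labelled HE. The 11 genes of the tri-snRNP and of later PRP factors had medians of 0.030 for HO against WT, 0.047 for HE against WT and −0.019 for HO against HE, all within the limit, and the first became −0.0020 once the median of genes of like length was subtracted. prpf8, which encodes the protein at the catalytic centre of the spliceosome, had 7766 counts in HO, 6373 in HE and 7193 in WT. Its ratio was 0.03 (−0.02 to 0.08) for HO against WT and 0.12 (0.07 to 0.17) for HO against HE, and the second became −0.063 with the same subtraction, prpf8 being among the longest members. prpf4ba, a copy of the gene for the kinase PRP4, had 488 counts in HO, 388 in HE and 510 in WT and a ratio of −0.31 (−0.50 to −0.12) for HE against WT, the lowest of the snRNP genes in that pair. sf3b1, sf3a2, sf3b4, prpf8, snrpa and snrpc were chosen after their values were seen.

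Other LSm proteins act outside the spliceosome. lsm1, for the LSm protein of the cytoplasmic decay ring, had 212 counts in HO, 221 in HE and 189 in WT and a ratio of 0.31 (0.02 to 0.60) for HE against WT. lsm11, whose human counterpart belongs to the U7 snRNP that processes histone pre-mRNA, had 62 counts in HO, 52 in HE and 42 in WT. Its ratios of 0.46 (−0.11 to 1.08) for HO against WT and 0.38 (−0.22 to 1.02) for HE against WT were past the limit with counting intervals that included no difference. lsm12a had 366 counts in HO, 413 in HE and 359 in WT, with a ratio of −0.34 (−0.55 to −0.13) for HO against HE, so that HE was the highest library here too.

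Members near the minimum of 10 counts were few. Just inside it were srsf7b, lsm11 and a second gene named hnrnpa0l (ENSDARG00000076380, which the reference table names gzf1), with 88 counts in HO, 83 in HE and 79 in WT. Just outside were lsm14b, with 2 counts in HO, 3 in HE and 3 in WT, and a second gene named srsf3a (ENSDARG00000100815), at 0 counts in every library. Names beyond the starting letters used here left out snrnp70, the U1 gene for the protein that contacts SR proteins, with 2608 counts in HO, 2827 in HE and 2670 in WT, and hnrpkl, with 1536 in HO, 1371 in HE and 1456 in WT.

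Members of short exonic length leaned lower in the library labelled HO than in that labelled HE, as did short genes in general. The 15 members under 1000 bases, 14 of which were snRNP genes, had a median log2 ratio of −0.21 for HO against HE, and the 1590 tested genes of that length had −0.11. In this pair, 13 of the 15 members and 995 of the 1590 genes were lower. The 29 members of 1000 to 2000 bases had −0.12 beside −0.07 over all genes, the 30 of 2000 to 4000 bases 0.0061 beside −0.0082, and the 15 of 4000 bases or more −0.03 beside 0.09. Members under 1000 bases had −0.07 for HO against WT and 0.15 for HE against WT, where all genes of that length had −0.08 and 0.02. When the median of genes of like length was subtracted from each gene, the Sm ring lay at −0.12 and the LSm ring at −0.08 for HO against HE, against −0.23 and −0.17 before. The class medians for this pair then were −0.044 over the SR, −0.071 over the hnRNP and −0.064 over the snRNP genes. Length thus moved with the ring genes' ratios in all genes as well as in members, and its part in them beyond this subtraction was not tested.

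**Figure D4:**
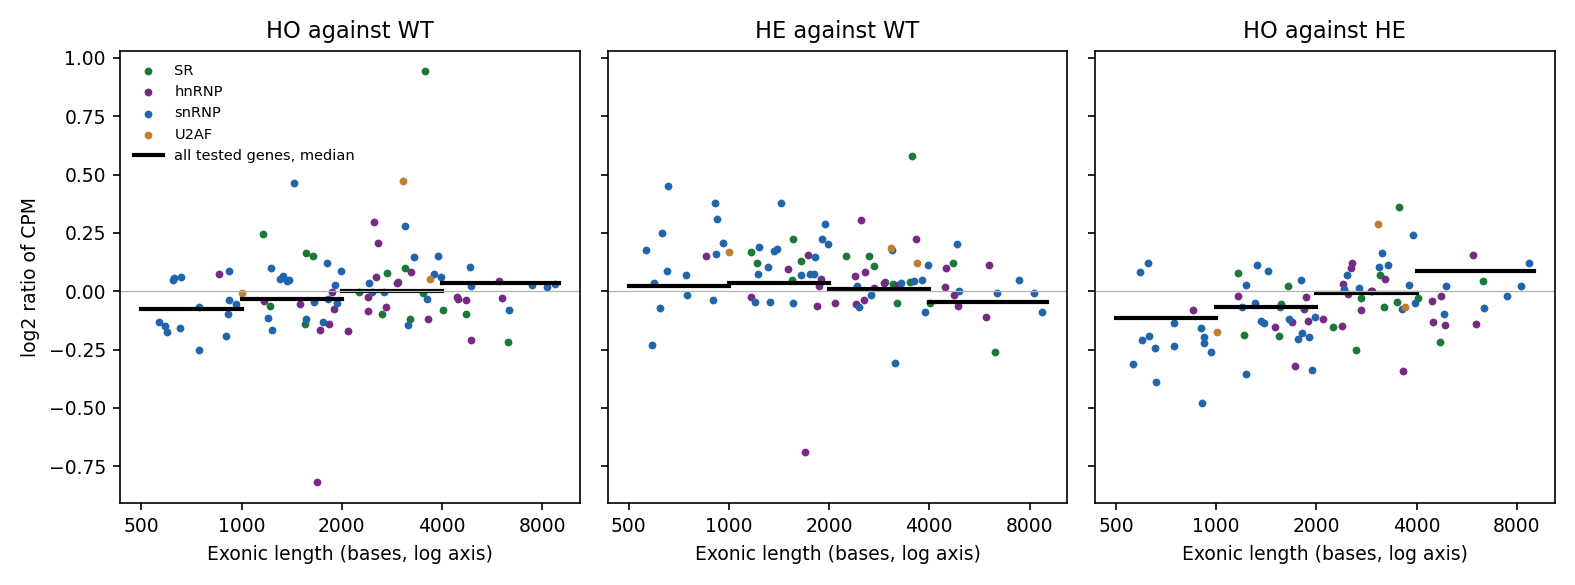
Log2 ratio of TMM-scaled CPM (vertical) of each splicing factor gene against its exonic length in bases on a log axis (horizontal), for HO against WT, HE against WT and HO against HE, with points coloured by class. Black bars are the medians of all tested genes under 1000, from 1000 to 2000, from 2000 to 4000 and of 4000 bases or more; for HO against HE they run from −0.11 in the shortest genes to 0.09 in the longest, and the shortest members lie mostly below 0.

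Duplicated copies were compared as the share of a pair's counts that came from the first-named copy, which does not depend on scaling between libraries. Of 14 pairs, the srsf2 pair differed most. srsf2a held 81.8% (80.8 to 82.8) of the pair's counts in HO, 85.3% (84.2 to 86.2) in HE and 89.4% (88.5 to 90.2) in WT. u2af2a held 40.6% (39.3 to 41.9) in HO, 34.8% (33.4 to 36.2) in HE and 33.8% (32.4 to 35.2) in WT. The srsf2 shares did not overlap between any of the libraries, and for u2af2 the HO-labelled library stood apart from the other two. srsf5a held 59.2% (58.0 to 60.4) in HO, 54.8% (53.5 to 56.0) in HE and 61.2% (60.0 to 62.4) in WT, and prpf4ba held 27.7% (25.6 to 29.8) in HO, 25.2% (23.0 to 27.4) in HE and 30.1% (27.9 to 32.3) in WT, both with HE lowest. By counts, the more abundant copy of each of these 4 pairs was the same in all libraries. By FPKM, which is per length, it was not for srsf5, with srsf5a at 52.0% in HO, 47.5% in HE and 54.1% in WT, nor for prpf4b, with prpf4ba at 47.5% in HO, 44.3% in HE and 50.4% in WT. Of the other pairs, the near-even hnrnpa1 pair also changed order by counts. hnrnpa1a held 50.1% (49.2 to 51.0) in HO, 48.2% (47.3 to 49.2) in HE and 49.5% (48.6 to 50.5) in WT. The intervals of HO and WT included an even split, so the order in those libraries is not determined. By FPKM, hnrnpa1a led in each library, with 61.9% in HO, 60.1% in HE and 61.4% in WT. The least variable pair by counts was srsf7, with srsf7a at 98.3% in HO, 98.5% in HE and 98.6% in WT. How the counting treated reads that fit both copies is not given in the sources used here, so the split between near-identical copies is uncertain.

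**Figure D5:**
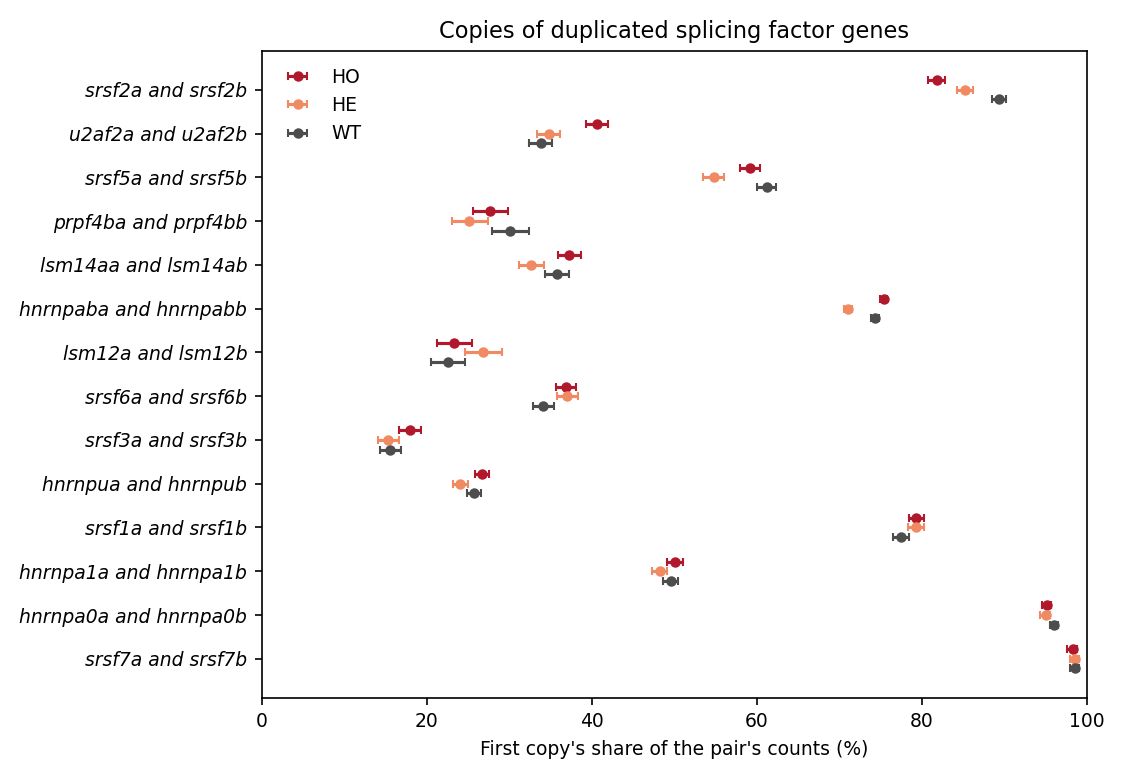
Share of the pair's counts held by the first-named copy, in percent (horizontal), for 14 pairs of duplicated splicing factor genes (vertical), in the libraries labelled HO, HE and WT from top to bottom within a pair. Bars are 95% exact binomial intervals for counting error; the share of srsf2a is 81.8% in HO, 85.3% in HE and 89.4% in WT, and most other pairs stay within a few percentage points.

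Other genes of splicing were followed through lists of symbols. The U1-related list (6 genes, snrnp70 among them) had no gene past the limit in any pair. Of 13 U2-related genes, 1 was past it, phf5a, which encodes a small SF3B protein, with 42 counts in HO, 31 in HE and 28 in WT and a counting interval that included no difference. Over all tested genes, 10.6% were past the limit higher and 12.9% lower for HO against WT. The shares were 11.1% and 15.2% for HE against WT and 15.2% and 13.0% for HO against HE, so lists of these sizes can hold few or none. The 14 other tri-snRNP genes held a pair of copies with ratios of opposite sign. snu13a, a gene for the protein that binds the U4 kink-turn, had 248 counts in HO, 232 in HE and 136 in WT, with log2 ratios of 0.78 (0.48 to 1.10) for HO against WT and 0.85 for HE against WT. snu13b had 476 in HO, 514 in HE and 662 in WT, with −0.55 (−0.73 to −0.38) for HO against WT and −0.28 for HE against WT. The more abundant copy was thus lower and the less abundant copy higher in the libraries labelled HO and HE.

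The minor spliceosome, which removes the rare U12-type introns, has proteins of its own (zrsr2 is also in the U2-related list). All 8 tested genes of its list were lower for HO against WT, with a median of −0.11. Of all 18966 tested genes, 9587 were lower, with a median of −0.0028. In the list, snrnp48 alone was past the limit and beyond counting error, with 89 counts in HO, 112 in HE and 120 in WT and a log2 ratio of −0.50 (−0.92 to −0.10). By the GRCz12tu annotation snrnp48, too, lies on the chromosome of setd2, but unlike the members there it had its highest count in the library labelled WT. For HO against HE, snrnp48 and zcrb1 (170 counts in HO, 197 in HE and 179 in WT) were past the limit lower and the list had a median of −0.19, and for HE against WT pdcd7 was past it lower (142 counts in HE and 206 in WT) and the median was −0.0046.

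Sm rings are assembled by the SMN complex, which loads Sm proteins onto snRNA, and by its partners. Of 14 tested genes of this list, none was past the limit higher and 2 were lower for HO against WT, 4 were higher and none lower for HE against WT, and none was higher and 3 lower for HO against HE. Over all tested genes, 10.6% were past it higher and 12.9% lower for HO against WT, 11.1% and 15.2% for HE against WT, and 15.2% and 13.0% for HO against HE. Against these shares the list had more genes higher for HE against WT and lower for HO against HE, and fewer in the opposite directions. Of the 4 genes higher for HE against WT, gemin2 and gemin8 were so beyond counting error. The counting intervals of gemin6 (0.38, −0.09 to 0.88) and gemin7 (0.42, −0.04 to 0.90) included no difference. In a list of this size the differences from the shares of all genes rest on a few genes, at a depth that was not matched, and were not tested. gemin6 had 49 counts in HO, 83 in HE and 67 in WT, with a log2 ratio of −0.90 (−1.47 to −0.40) for HO against HE, and gemin2 had 212 in HO, 270 in HE and 226 in WT, with −0.51 (−0.78 to −0.25). smn1, the gene for SMN, had 228 counts in HO, 255 in HE and 274 in WT and −0.34 (−0.61 to −0.09) for HO against WT. The list's median for HO against HE was −0.14, or −0.070 once the median of genes of like length was subtracted, and gemin2 and gemin6 had their highest counts in the HE-labelled library.

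The remaining lists had shares past the limit that are read against the same background of 10.6% higher and 12.9% lower for HO against WT, 11.1% and 15.2% for HE against WT and 15.2% and 13.0% for HO against HE. In the PRP19 complex and related factors (21 genes), 2 genes were past the limit lower for HO against WT, cwc15 (286 counts in HO, 289 in HE and 360 in WT) and isy1 (459 in HO, 491 in HE and 547 in WT), and ppie was past it lower for HE against WT. Beyond counting error, 8 of the 21 genes were lower and 2 higher for HO against WT. Of all 12017 genes averaging 100 counts or more, 1588 were lower and 1855 higher beyond it in this pair, at unmatched depth. The exon junction complex (9 genes) had rnps1 past the limit higher for HO against WT and for HE against WT, with 99 counts in HO, 87 in HE and 69 in WT. Among 18 kinases and partners of SR proteins, clk4a, for a kinase of SR proteins, was past it higher for HE against WT with 1545 counts in HO, 1534 in HE and 1255 in WT, and srrm4, for a neuronal splicing activator, was past it higher for HO against HE with 800 counts in HO and 566 in HE. The ratio of srrm4, a gene of 12640 exonic bases, was 0.33 (0.18 to 0.49). It became 0.15 once the median of genes of like length was subtracted. Of 35 tissue-specific splicing regulators, 4 were past the limit higher and 1 lower for HO against WT, 3 higher and 1 lower for HE against WT, and 3 higher and 1 lower for HO against HE. In each pair, 1 lower of 35 lay below the background share of genes lower, and no difference from this background was tested. Most of the genes past the limit had under 200 counts in each library. Ratios of the tissue-specific regulators ran from −0.88 to 1.03 for HO against WT and from −0.66 to 0.77 for HE against WT. For HO against HE they ran from −0.61 to 1.40. In HO against WT and in HO against HE, 1 gene was past 2-fold, beside 2.39% and 2.67% of all tested genes. The 2 genes given next were not those of the largest ratios. mbnl1, a regulator known from muscle, had 156 counts in HO, 90 in HE and 111 in WT, and rbm24a, another muscle and heart regulator, had 528 in HO, 504 in HE and 409 in WT.

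The list closest to Setd2 itself held readers of trimethylated lysine 36 of histone H3 (morf4l1, psip1a, psip1b and zmynd11) and the splicing factors that they contact in mammals (ptbp1a, ptbp1b, srsf1a, srsf1b and eftud2), so that srsf1a and srsf1b are members and eftud2 is also in the tri-snRNP list. None of these 9 genes was past the limit in any pair. Their median was 0.025 for HO against WT, 0.080 for HE against WT and −0.030 for HO against HE. Of all genes averaging 100 counts or more, 5.00% were past it higher and 5.52% lower for HO against WT. The shares were 5.68% and 7.28% for HE against WT and 8.26% and 6.97% for HO against HE, so a list of this size can hold none. For HO against WT, srsf1a (0.08, 0.03 to 0.13) and psip1b (0.16, 0.03 to 0.29) were higher beyond counting error and morf4l1 (−0.14, −0.25 to −0.04) lower. Of all 12017 genes averaging 100 counts or more, 1855 were higher and 1588 lower beyond counting error in this pair, at unmatched depth. The genes named from these lists, apart from their counts, were chosen after their values were seen.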

How the data were processed

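Whole-embryo mRNA was sequenced in 3 libraries, 1 each for the genotypes HO, HE and WT, with groups taken from the labels. The authors deposited read counts per gene, with no normalization, and FPKM values, which are the count per exonic length and library total to within 0.005. The submitters' processing notes name HISAT2 (2.0.2) and GRCz11, whereas the study's methods name TopHat and another build. The methods name a stranded TruSeq kit and the labels a TruSeq RNA kit and a VAHTS mRNA kit. Whether strand was used in counting, the counting tool and the annotation release are not given in the sources used here, so overlapping and antisense genes cannot be told apart. The per-library and series tables held 0 differing values, and 1 column, headed with another library's name, was not used.

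Counts were scaled by TMM in edgeR 4.0.16 (R 4.3.3). Log2 ratios of CPM used a prior count of 2, and genes averaging 10 counts or more were kept. Intervals (95%, Clopper-Pearson) cover counting error only, and reads of PCR-amplified libraries are not independent molecules. The steps were tested on simulated data. Sums and figures were made in Python 3.11.15 with numpy 2.4.6, pandas 2.3.3, scipy 1.17.1 and matplotlib 3.10.9. The alternatives tried were scaling by DESeq2 1.42.0 size factors or by library totals alone, deposited FPKM (pseudocount 1 or 0.1), all genes or those averaging 100 counts, a smaller prior count (0.25), 1 value per base symbol, and removal of the length trend in 20 bins.

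Members, roles and lists were chosen with earlier results of these data known. Genes are named by rule, being setd2, the 3 members of highest FPKM in each class, the 8 of largest ratio in each pair of libraries among those with a mean of at least 50 counts, the ring genes, and the 4 pairs of copies of most variable share among those with at least 200 counts in each library. Of the 91 names, 21 differed from the reference table of gene names other than by case. Chromosomes are from GRCz12tu, by symbol. No protein or promoter sequence was used here, so the planned comparison of protein features was not made. The values of 1 member are not reported here.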

Additional observations from a re-analysis of the deposited data

How the results depend on the processing

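With 1 library per genotype, no replicate could be left out. No paired analysis was possible because the groups share only 1 replicate number. No value past the size limit changed sign, and of the class medians 1 did, that of SR genes for HO against WT, at 0.0066 with the length trend removed. Of 81 class medians recomputed, 61 moved by less than the margin of counting error of the class and 20 moved by more. This margin is the distance from the middle of the counting interval of the class's summed ratio to its end. Scaling by total counts gave 0.093 (SR), 0.003836 (hnRNP) and 0.051 (snRNP) for HE against WT and −0.062 (hnRNP) for HO against HE. FPKM with a pseudocount of 1 gave 0.091, 0.0039 and 0.050 for HE against WT in the same classes, and −0.059 (hnRNP) and −0.056 (snRNP) for HO against HE. With a pseudocount of 0.1 these were 0.093, 0.0039 and 0.051 for HE against WT and −0.063 (hnRNP) for HO against HE. A minimum mean of 100 counts gave 0.010 (hnRNP, HE against WT), and removal of the length trend 0.093 (SR, HE against WT). With 1 value per base symbol, SR genes lay at −0.029 for HO against WT, 0.088 for HE against WT and −0.068 for HO against HE, hnRNP genes at −0.055 for HO against WT and snRNP genes at −0.099 for HO against HE. Of 54 counts past the limit, 7 moved by over 1.5 times. For HO against WT, 1 base symbol was higher, and without a filter 2 genes were lower. For HE against WT, 2 were lower with total counts and 2 with FPKM and a pseudocount of 0.1. For HO against HE, 0 base symbols were higher and 3 lower, and 2 genes were lower with the length trend removed. Of 951 values of named genes, 11 moved, all on removal of the length trend. Those of setd2 for HE against WT and for HO against HE were among them. Genes near or under 100 counts, such as lsm11, hnrnpa3 and gemin6, are limited by depth.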
